A study of Mus musculus with 12 samples.

Results

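The 10 genes described here are the inflammatory cytokines Il1a, Il1b, Il18, Tnf, Il6 and Il10, the antagonists Il1rn and Il18bp, and the inflammasome genes Nlrp3 and Casp1. They were chosen by symbol from the 31054 genes of the count tables, and all 10 were listed. They were read in 12 single-cell RNA libraries of C57BL/6J mice. In 8 of these libraries, GFP+ microglia-like cells (MLCs) and GFP- endogenous microglia had been sorted separately from the brains of 4 busulfan-conditioned mice, by Cd45, Cd11b and Cx3cr1 after enzymatic dissociation. All 4 mice had received hematopoietic stem and progenitor cells of male donors transduced with LVV.GFP, a lentiviral vector for GFP. A female and a male mouse were dosed intravenously (i.v.), and a female and a male mouse intracerebroventricularly (i.c.v.). Per the study's methods all recipients were also given non-transduced bone marrow, so that the GFP- sort can hold donor cells without the vector. The labels give an age of 22 to 28 weeks and the study's text 12 to 13 months after dosing, which could not be reconciled here. The other 4 libraries were 1 each of neurons, astrocytes, microglia and white blood cells, all from 1 treatment-naive animal per the study's text, so these have no replicates. Its age is 8 to 12 weeks in the labels and 12 weeks in the text.

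Of the cytokines of the interleukin-1 family, IL-1 beta is made mostly by myeloid cells. The precursor of IL-1 beta and that of IL-18 are cut into their active forms by caspase-1, which is activated on inflammasomes such as the one nucleated by the sensor NLRP3, while IL-1 alpha binds the same receptor as IL-1 beta. The receptor antagonist encoded by Il1rn occupies that receptor without signaling, and the binding protein encoded by Il18bp captures IL-18. In the brain, microglia are the best known source of IL-1 beta and TNF, and transcripts of both are induced rapidly through NF-kB.

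The proximal promoters of Il1a, Il1b, Tnf and Il6 are shown because these are the rapidly inducible cytokines of the set. The sequences are the 250 bases upstream of the RefSeq start on GRCm38.p6, 5′ to 3′ on the gene's strand. The promoter of Il1a is chr2:129309973-129310222 and that of Il1b chr2:129371140-129371389, both on the minus strand. The promoter of Tnf is chr17:35202008-35202257 on the minus strand, and that of Il6 chr5:30012864-30013113 on the plus strand. Capitals mark TATAAA on the sense strand, and on either strand TTNNGNAA (a C/EBP-type motif) and an NF-kB-type motif, GGGA and TTCC with any 2 bases between them.
Il1a: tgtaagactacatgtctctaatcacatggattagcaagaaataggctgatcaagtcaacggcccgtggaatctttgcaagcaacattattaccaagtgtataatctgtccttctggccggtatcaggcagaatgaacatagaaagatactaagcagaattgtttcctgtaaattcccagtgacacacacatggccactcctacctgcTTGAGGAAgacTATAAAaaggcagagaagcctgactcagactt
Il1b: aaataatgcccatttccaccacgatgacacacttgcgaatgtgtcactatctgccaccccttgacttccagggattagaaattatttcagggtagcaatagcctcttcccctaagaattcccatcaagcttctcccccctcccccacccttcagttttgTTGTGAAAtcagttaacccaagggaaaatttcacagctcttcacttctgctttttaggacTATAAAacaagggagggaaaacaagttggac
Tnf: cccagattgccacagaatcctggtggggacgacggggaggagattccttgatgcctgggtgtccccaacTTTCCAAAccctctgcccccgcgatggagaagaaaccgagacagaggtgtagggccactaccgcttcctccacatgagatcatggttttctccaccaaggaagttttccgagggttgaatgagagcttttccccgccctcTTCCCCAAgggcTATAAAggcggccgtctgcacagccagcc
Il6: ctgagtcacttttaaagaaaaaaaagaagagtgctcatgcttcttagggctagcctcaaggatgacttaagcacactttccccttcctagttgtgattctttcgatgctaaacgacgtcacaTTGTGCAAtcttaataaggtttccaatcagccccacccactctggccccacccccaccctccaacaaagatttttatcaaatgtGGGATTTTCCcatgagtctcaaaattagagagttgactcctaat
In Il1a, Il1b and Tnf, TATAAA began 32, 31 and 29 bases before the start. Of the 32851 promoters in the table, 7.59% held TATAAA anywhere and 1.99% held it beginning 40 to 20 bases before the start. Il6 held no TATAAA in this window. Its NF-kB-type match began 44 bases before the start, and 1.21% of all promoters held that motif. TTNNGNAA, which 36.8% of all promoters held, was found in all 4. None of these matches overlapped another in these 4 sequences. The motifs were chosen after the sequences had been seen, and a match is a description and not a site. Promoters of 9 of the 10 genes were matched, all but Il10.

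Per the GENCODE annotation of GRCm38, Il1a (chr2:129299610-129309972), Il1b (chr2:129364570-129371139) and Il1rn (chr2:24336853-24351494) lie on chromosome 2, and Casp1 (chr9:5298517-5307265) and Il18 (chr9:50554827-50581840) on chromosome 9. Tnf is at chr17:35199381-35202007, Il6 at chr5:30013114-30019981, Il10 at chr1:131019845-131024974, Nlrp3 at chr11:59541568-59566956 and Il18bp at chr7:102014885-102018690. Il1b overlaps the antisense gene Il1bos by 1243 bases, Il18 overlaps Bco2 and Tex12 on the other strand, and Il18bp overlaps the end of Numa1 by 80 bases. Il1a overlaps Gm14023, which the tables do not list. Whether the counting used strand is not given in the sources used here, so reads in these overlaps are uncertain. Il1bos was counted at 0.919 to 2.21 CPM in the 8 brain sorts, and Numa1 at 68.7 to 92.1 CPM in MLCs and 94.3 to 136 CPM in endogenous microglia.

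MLC libraries held 2266 to 3536 cells and 8835197 to 16514669 UMIs, and endogenous libraries 2675 to 4555 cells and 4970758 to 8105756 UMIs. Every MLC library held more UMIs per cell on average than every endogenous library. In median depth the MLC library of the i.v.-dosed female stood apart, with 3499 UMIs per cell against 842 to 1307.5 in the other 7. EGFP was counted at 16.8 to 33.3 CPM in MLCs and with 0 or 1 UMI per library in endogenous microglia. At least 3 of 10 microglia markers were found in 53.6% to 70.9% of MLCs and in 92.5% to 96.8% of endogenous microglia, and at least 3 of 8 markers of CNS-associated macrophages in 33.5% to 46.6% of MLCs and 3.74% to 12.4% of endogenous microglia. Neutrophil markers summed to 1682 and 3320 CPM in MLCs of i.v.-dosed mice and to 112 and 120 CPM in those of i.c.v.-dosed mice, and they reached 6053 CPM in the endogenous microglia of the i.c.v.-dosed female. No 2 libraries shared more than 8 barcodes. Of the naive library sorted as neurons, 95.5% of the cells carried at least 3 oligodendrocyte markers, so it is called the neuron sort and not neurons.

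The first comparison asked how MLCs differ from the endogenous microglia of the same brains. Of the 10 genes, Il18bp, Casp1 and Il18 were higher in MLCs, Tnf and Il6 were lower, and Il1a, Il1b, Il1rn, Il10 and Nlrp3 did not pass the test. These 5 calls of 10 stand beside 3820 calls among 11756 genes tested, or 32.5%, and the 2 lower calls beside 15.9% of all genes. For 4 of the 10 genes, Il18bp, Casp1, Tnf and Il6, the 4 MLC and 4 endogenous libraries did not overlap, and this held for 38.9% of all genes. The median log2 fold change was 0.55 over the 10 genes and 0.01 over all genes. Levels are given as UMIs per 1000000 UMIs of the library (CPM), which are counts of 3-prime tags and are not scaled to transcript length. Fold changes are on the scale of edgeR's TMM normalization, and where counts were scaled to library totals alone the median of all genes shifted to -0.27 on the log2 scale. The calls of all genes then split into 770 higher and 3803 lower, against 1951 higher and 1869 lower with TMM.

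**Figure D1:**
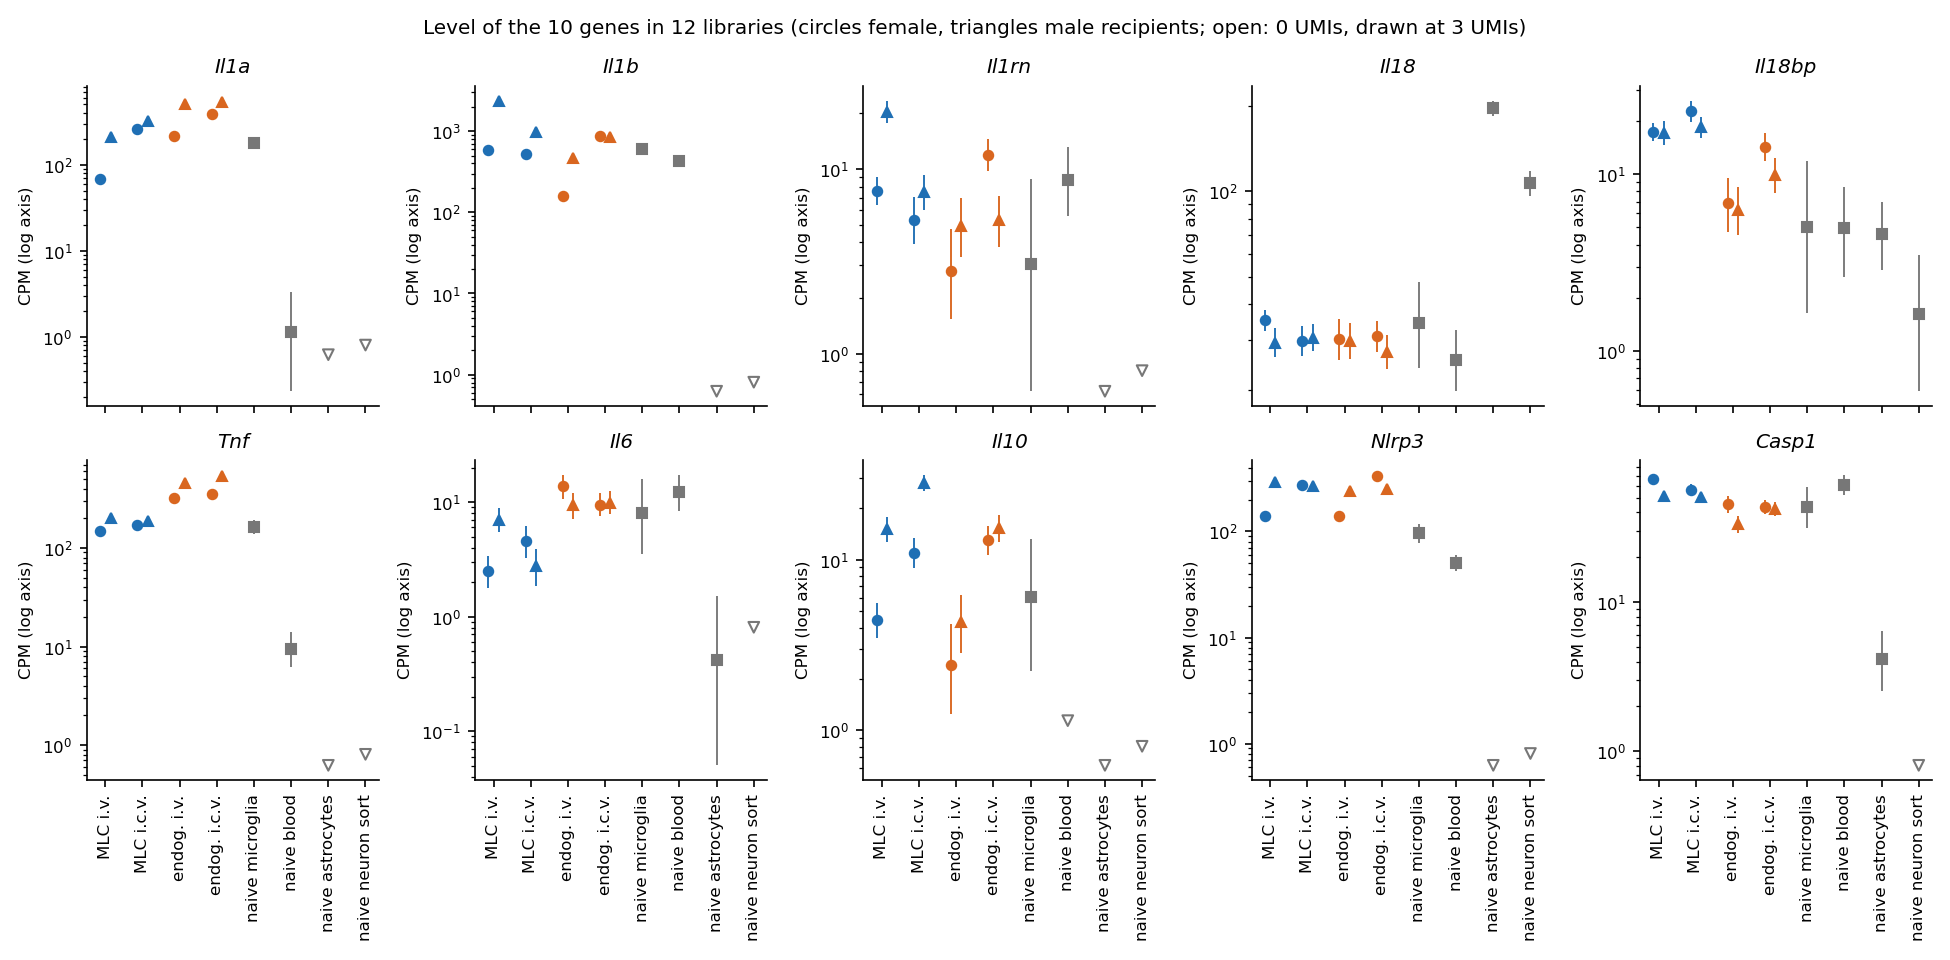
The 10 genes in all 12 libraries, as CPM on log axes that differ between panels, where blue points are MLCs, orange points endogenous microglia and gray squares the naive libraries, bars are 95% exact Poisson intervals that cover counting error only, and open triangles stand for 0 UMIs. The 4 MLC libraries lie below the 4 endogenous libraries for Tnf and Il6 and above them for Il18bp and Casp1.

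Tnf encodes tumor necrosis factor, the main member of its own cytokine family. It was at 150 and 200 CPM in MLCs of the i.v.-dosed female and male and at 173 and 188 CPM in those of the i.c.v.-dosed mice. In endogenous microglia it was at 324 and 451 CPM after i.v. and at 353 and 538 CPM after i.c.v. dosing. Every MLC library was below every endogenous library, and in each of the 4 mice the MLC level was 0.350 to 0.489 times that of the endogenous microglia. The group means were 178 ± 21.7 CPM (SD, n = 4) and 417 ± 97.4 CPM (SD, n = 4), with a log2 fold change of -0.94 (SE 0.179, adjusted p = 0.00572). The call held without each library in turn, with the mouse as a block and in DESeq2, and it was lost where the fit held only i.v.-dosed mice (-0.77, adjusted p = 0.0565). With 500 UMIs drawn from every cell before summing, the log2 fold change was -1.60.

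Il6 encodes interleukin-6, a cytokine that signals through gp130. It had 30 to 69 UMIs per MLC library and 61 to 77 per endogenous library. These were 2.48 and 6.99 CPM in MLCs after i.v. and 4.53 and 2.75 CPM after i.c.v. dosing, in the female and the male. In endogenous microglia they were 13.7 and 9.35 CPM after i.v. and 9.50 and 9.90 CPM after i.c.v. dosing. The groups did not overlap, and the log2 fold change was -1.06 (SE 0.328, adjusted p = 0.0353). This call was among the least stable, since it was lost without any 1 of 7 libraries, all but the MLCs of the i.v.-dosed male (adjusted p up to 0.0872), with the mouse as a block (adjusted p = 0.0572) and with a stricter barcode filter (adjusted p = 0.0992). In the MLC library of the i.v.-dosed male, 55.1% of the Il6 UMIs were in 2 cells.

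Il18bp was at 17.4 and 17.1 CPM in MLCs of the i.v.-dosed female and male and at 22.7 and 18.4 CPM in those of the i.c.v.-dosed mice. In endogenous microglia it was at 6.84 and 6.28 CPM after i.v. and at 14.3 and 9.90 CPM after i.c.v. dosing. All 4 MLC libraries were above all 4 endogenous libraries, and the log2 fold change was 1.26 (SE 0.262, adjusted p = 0.00799). The call was lost where the fit held only i.c.v.-dosed mice (0.92, adjusted p = 0.0544), and it held without each library in turn. Its ligand Il18 was nearly level on the CPM scale, at 29.3 to 35.1 CPM in MLCs and 27.1 to 30.8 CPM in endogenous microglia, and these ranges overlapped. The TMM-scaled log2 fold change of Il18 was 0.37 (SE 0.107, adjusted p = 0.0291). The call of Il18 was lost with scaling to library totals (0.08, adjusted p = 0.544), with the mouse as a block (adjusted p = 0.0569), without any 1 of 6 libraries, all but both libraries from the female with i.c.v. dosing (adjusted p up to 0.0853), and with cells thinned to 500 UMIs (-0.05). The number of Il18 UMIs per Il18bp UMI was 1.30 to 2.01 in MLCs and 2.16 to 4.73 in endogenous microglia.

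Casp1 encodes caspase-1, the protease of the inflammasome. It was at 66.8 and 51.0 CPM in MLCs of the i.v.-dosed female and male and at 56.5 and 50.5 CPM in those of the i.c.v.-dosed mice. In endogenous microglia it was at 45.1 and 33.1 CPM after i.v. and at 43.2 and 42.0 CPM after i.c.v. dosing. The groups did not overlap, and the log2 fold change was 0.74 (SE 0.148, adjusted p = 0.00687). The call held without each library in turn, and it was lost when every cell was thinned to 500 UMIs (0.39, adjusted p = 0.298). The sensor Nlrp3 was at 141 and 295 CPM in MLCs after i.v. and at 277 and 270 CPM after i.c.v. dosing. In endogenous microglia Nlrp3 was at 141 and 239 CPM after i.v. and at 331 and 252 CPM after i.c.v. dosing. The Nlrp3 ranges overlapped almost fully, and its log2 fold change of 0.30 (95% interval -0.37 to 0.96, adjusted p = 0.468) did not pass the test.

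Il1b, the cytokine that caspase-1 activates, had the widest range of CPM of the 10 genes. In MLCs it was at 580 and 2347 CPM after i.v. and at 521 and 975 CPM after i.c.v. dosing, in the female and the male. In endogenous microglia it was at 159 and 462 CPM after i.v. and at 882 and 848 CPM after i.c.v. dosing. The ranges overlapped, with the highest value in MLCs and the lowest in endogenous microglia of i.v.-dosed mice. The log2 fold change was 1.20 with a 95% interval from -0.21 to 2.61 (adjusted p = 0.168). The level in MLCs was 3.64 and 5.08 times that in endogenous microglia in the i.v.-dosed female and male, and 0.590 and 1.15 times in the i.c.v.-dosed mice. Fitted to i.v.-dosed mice only, the log2 fold change was 2.63 (adjusted p = 0.0418), and to i.c.v.-dosed mice only, -0.03 (adjusted p = 0.951).

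Il1rn, the natural antagonist, was scarce, with 47 to 202 UMIs per MLC library and 14 to 97 per endogenous library. It was at 7.63 and 20.5 CPM in MLCs after i.v. and at 5.32 and 7.52 CPM after i.c.v. dosing. In endogenous microglia it was at 2.82 and 4.90 CPM after i.v. and at 12.0 and 5.27 CPM after i.c.v. dosing. The groups overlapped, and the log2 fold change was 0.96 (95% interval -0.25 to 2.17, adjusted p = 0.195). It was 2.20 (adjusted p = 0.0286) fitted to i.v.-dosed mice only and -0.26 (adjusted p = 0.728) to i.c.v.-dosed mice only. The number of Il1b UMIs per Il1rn UMI ran from 76.0 to 130 in MLCs and from 56.5 to 161 in endogenous microglia, and these ranges overlapped.

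Il1a, the alarmin of the pair, was lower in MLCs in 4 of 4 mice without passing the test. It was at 69.1 and 210 CPM in MLCs after i.v. and at 258 and 320 CPM after i.c.v. dosing, and at 215 and 509 CPM in endogenous microglia after i.v. and at 391 and 538 CPM after i.c.v. dosing. The lowest endogenous library lay inside the MLC range. The log2 fold change was -0.68 (95% interval -1.63 to 0.26, adjusted p = 0.238), and it was -0.78 (adjusted p = 0.0229) with the mouse as a block and -1.14 (adjusted p = 0.0298) with cells thinned to 500 UMIs. The number of Il1b UMIs per Il1a UMI was 8.39 and 11.2 in MLCs of i.v.-dosed mice, 2.02 and 3.05 in those of i.c.v.-dosed mice and 0.741 to 2.26 in endogenous microglia. The anti-inflammatory Il10 was at 4.42 and 15.1 CPM in MLCs after i.v. and at 11.0 and 28.2 CPM after i.c.v. dosing. In endogenous microglia Il10 was at 2.41 and 4.29 CPM after i.v. and at 13.0 and 15.3 CPM after i.c.v. dosing. These ranges overlapped too, and the log2 fold change of Il10 was 0.95 (95% interval -0.47 to 2.38, adjusted p = 0.273).

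**Figure D2:**
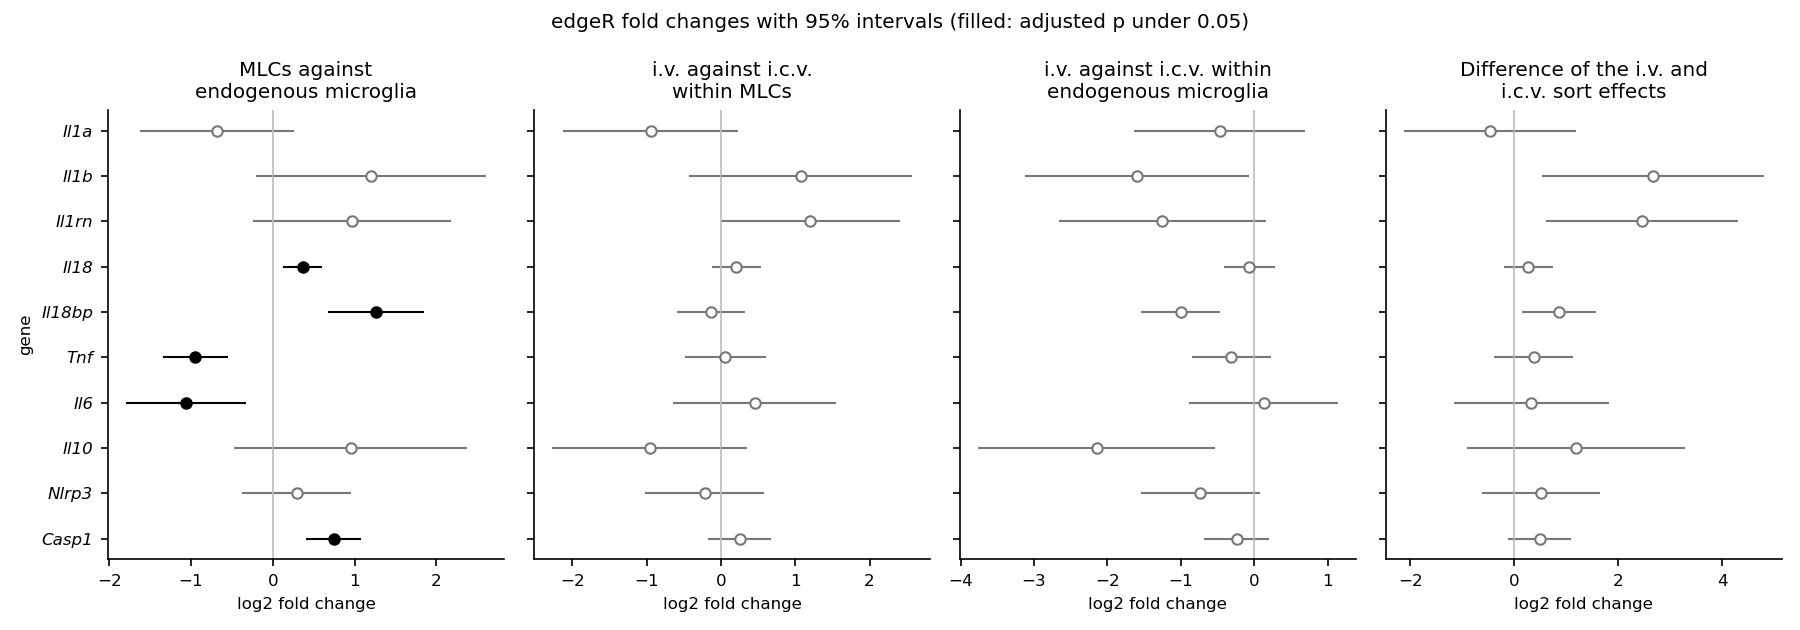
The log2 fold change of each gene in 4 comparisons, with 95% intervals from edgeR, where filled points passed an adjusted p of 0.05. Il18bp, Casp1 and Il18 lie above 0 and Tnf and Il6 below 0 in the comparison of MLCs with endogenous microglia, and no gene passed in the other 3 comparisons.

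The second question was whether the route of dosing mattered within each sort, with 2 libraries of each route per sort and the spread taken from all 8. Within MLCs, 0 of the 10 genes were called by edgeR, where 348 of 12540 genes, or 2.78%, were called. None of the 10 had an unadjusted p under 0.05, beside 2066 of all 12540 genes, and DESeq2 called 0 of the 10. The largest log2 fold change toward i.v. dosing was that of Il1rn, 1.20 (SE 0.527, adjusted p = 0.303), and Il1b had 1.07 (95% interval -0.43 to 2.57). Without the MLC library of the i.v.-dosed male, the value of Il1b turned to -0.28. Il1a had -0.95 (95% interval -2.13 to 0.24) and Il10 -0.96 (95% interval -2.28 to 0.36). Tnf differed least, at 0.06 (95% interval -0.48 to 0.60).

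Within endogenous microglia edgeR called 0 of the 10 genes, and it called 0% of all 12540 genes, with 1063 of them at an unadjusted p under 0.05. Among the 10 genes, 3 had an unadjusted p under 0.05, and DESeq2 called 1, Il10. Il10 was 2.41 and 4.29 CPM after i.v. and 13.0 and 15.3 CPM after i.c.v. dosing, with a log2 fold change of -2.15 (SE 0.709, adjusted p = 0.519 in edgeR and 0.0274 in DESeq2). Il1b had -1.59 (SE 0.668, adjusted p = 0.570) and Il18bp -1.003 (SE 0.238, adjusted p = 0.389). For these 3 genes, and also for Il1rn and Nlrp3, both i.v. libraries were below both i.c.v. libraries. How many of all genes had this order was not counted, so it describes these libraries and is not read as a trait of the set. Neutrophil markers summed to 517 and 344 CPM after i.v. and to 6053 and 1190 CPM after i.c.v. dosing. Cells with at least 3 neutrophil markers held 6.32% and 3.61% of the Il1b UMIs in the i.v.-dosed female and male. In the i.c.v.-dosed female and male they held 8.04% and 1.93%. The 45 such cells of the endogenous libraries held 0 UMIs of Il10 and 5 of Il18bp. The part of neutrophils in the differences between the routes was not tested. With cells carrying at least 3 markers of another immune cell type left out, Il1b was at 118 and 437 CPM after i.v. and at 814 and 801 CPM after i.c.v. dosing, with a log2 fold change of -1.66 (adjusted p = 0.588).

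The difference between the routes in the effect of the sort was tested as an interaction, in which 240 of 12540 genes, or 1.91%, were called and 0 of the 10 genes by edgeR. Of the 10, 3 had an unadjusted p under 0.05, namely Il1b, Il1rn and Il18bp, beside 2237 of all 12540 genes. DESeq2 called 1 of the 10, Il1rn (adjusted p = 0.0334). The interaction was 2.67 on the log2 scale for Il1b (SE 0.937, adjusted p = 0.190), 2.45 for Il1rn (SE 0.810, adjusted p = 0.163) and 0.86 for Il18bp (SE 0.311, adjusted p = 0.199). With the mouse as a block, Il1b was called (2.61, adjusted p = 0.0129), and with no filter on low counts both Il1b (adjusted p = 0.0266) and Il1rn (adjusted p = 0.0287) were called. Without cells carrying at least 3 markers of another immune cell type, the values were 2.48 for Il1b (adjusted p = 0.288) and 1.77 for Il1rn (adjusted p = 0.385). The 2 mice of a route differ also as a female and a male, and each route was measured in 2 mice.

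The cells that held the transcripts were examined next. At 500 UMIs drawn per cell, Tnf was found in 5.85% ± 1.59 (SD, n = 4) of MLCs and 17.2% ± 4.65 (SD, n = 4) of endogenous microglia, and the highest MLC library (7.72%) was below the lowest endogenous library (10.8%). Il1a was found in 7.62% ± 3.16 and 17.4% ± 5.56, with ranges of 3.47% to 10.5% and 9.27% to 21.2%. Il1b was found in 14.8% ± 6.57 of MLCs and 11.1% ± 6.57 of endogenous microglia, and Nlrp3 in 12.3% ± 3.04 and 11.9% ± 3.63, with overlapping ranges for both genes. Casp1 was found in 2.09% ± 0.624 and 1.76% ± 0.157, Il18 in 1.18% ± 0.371 and 1.28% ± 0.0240, and Il18bp in 0.811% ± 0.275 and 0.384% ± 0.115. Il1rn, Il10 and Il6 were found in under 1% of the cells of every one of these libraries. At the cells' own depth, Tnf was found in 21.6% ± 1.91 of MLCs and 30.8% ± 5.89 of endogenous microglia, and Il1b in 26.2% ± 10.2 and 17.7% ± 9.96. The share of Casp1 differed between the settings. At 1000 UMIs it was 5.47% ± 0.722 in MLCs and 3.08% ± 0.357 in endogenous microglia, without overlap, and at the cells' own depth 16.8% ± 5.02 and 6.03% ± 1.24. Cells with fewer UMIs than were drawn were left out. All cells of these libraries stayed at 500 UMIs, but 1374 to 2561 per MLC library and 1412 to 1953 per endogenous library at 1000 UMIs. The depth and the set of cells thus changed together. Il18 was found in 2.80% ± 0.488 and 2.28% ± 0.172 at 1000 UMIs, with overlap, and in 10.0% ± 2.81 and 4.42% ± 0.545 at the cells' own depth. As background, Tnf, Il1a, Il1b and Nlrp3 were each found in 0 of 1146 naive astrocytes at 500 UMIs, where 3 cells would be 0.262%. The median depth of the naive astrocytes before thinning was 3395 UMIs.

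**Figure D3:**
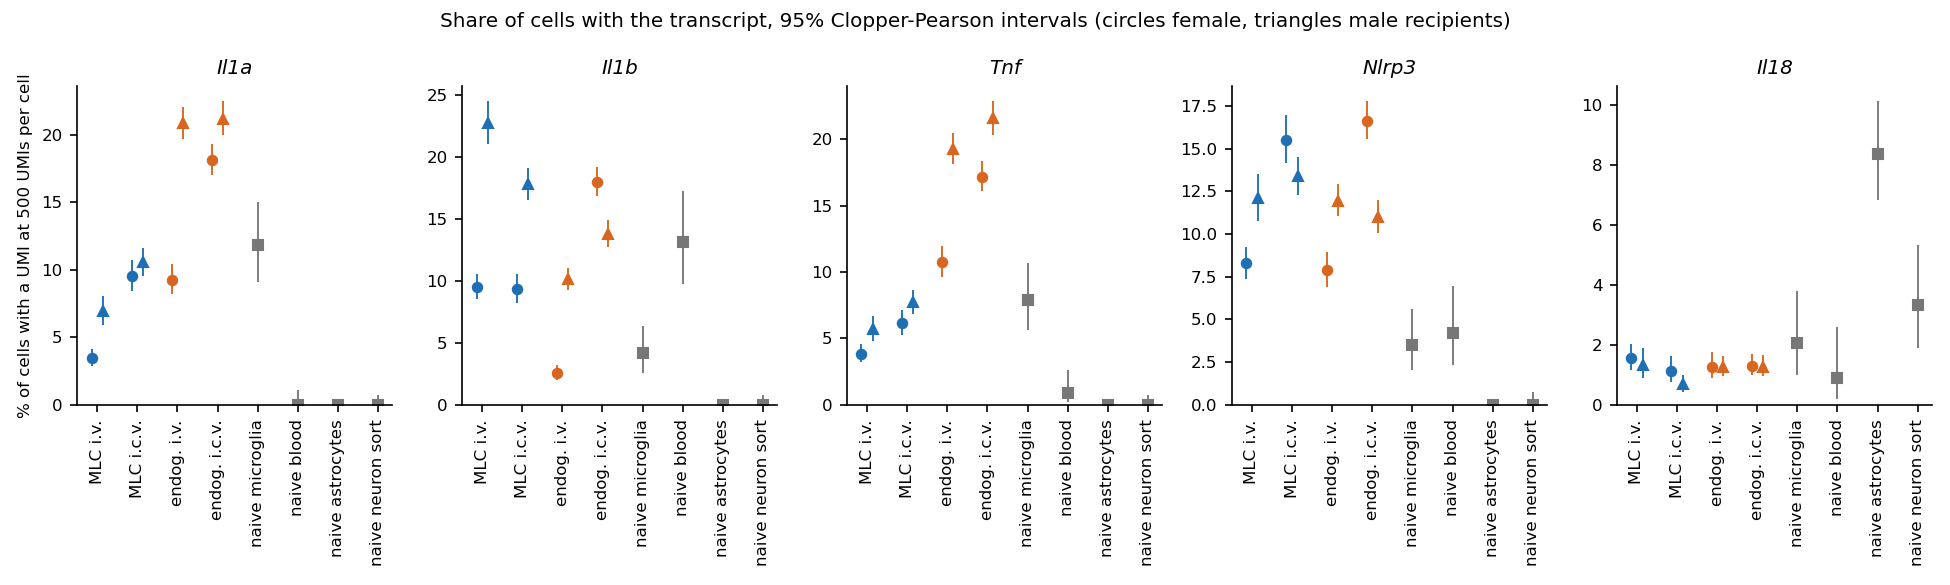
The share of cells with at least 1 UMI of 5 genes after 500 UMIs were drawn per cell, with 95% Clopper-Pearson intervals, where blue points are MLCs, orange points endogenous microglia and gray squares the naive libraries. The 4 MLC libraries lie at 3.86% to 7.72% for Tnf, below the endogenous libraries at 10.8% to 21.6%, and the naive astrocytes lie highest for Il18.

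Il1b was held by few cells with many UMIs each. In MLCs, 50% of the Il1b UMIs were in 1.07% to 2.96% of the cells, and in endogenous microglia in 0.336% to 0.850%. Cells with at least 10 Il1b UMIs held 85.0% to 94.0% of the Il1b UMIs of MLCs and 66.4% to 81.9% of those of endogenous microglia, and single cells held up to 506 in MLCs and up to 245 in endogenous microglia. There were 265 and 302 such cells in MLCs of i.v.-dosed mice, 98 and 229 in those of i.c.v.-dosed mice, and 16, 46, 109 and 112 in the endogenous libraries. A cell with the transcript held 10.1 to 26.3 Il1b UMIs on average in MLCs and 4.14 to 7.22 in endogenous microglia. For Il1a the order was the other way, with 50% of the UMIs in 1.83% to 2.15% of MLCs and 3.33% to 4.98% of endogenous microglia. No cell held more than 7 UMIs of Casp1 or Il18 in the 8 libraries, and both genes had fewer UMIs than Il1b in each. For Casp1, 50% of the UMIs were in 4.16% to 7.09% of MLCs and 1.80% to 2.76% of endogenous microglia. For Il18 these were 3.03% to 5.38% and 1.51% to 1.97%. These values are at the cells' own depth, which was higher on average in every MLC library than in any endogenous library.

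**Figure D4:**
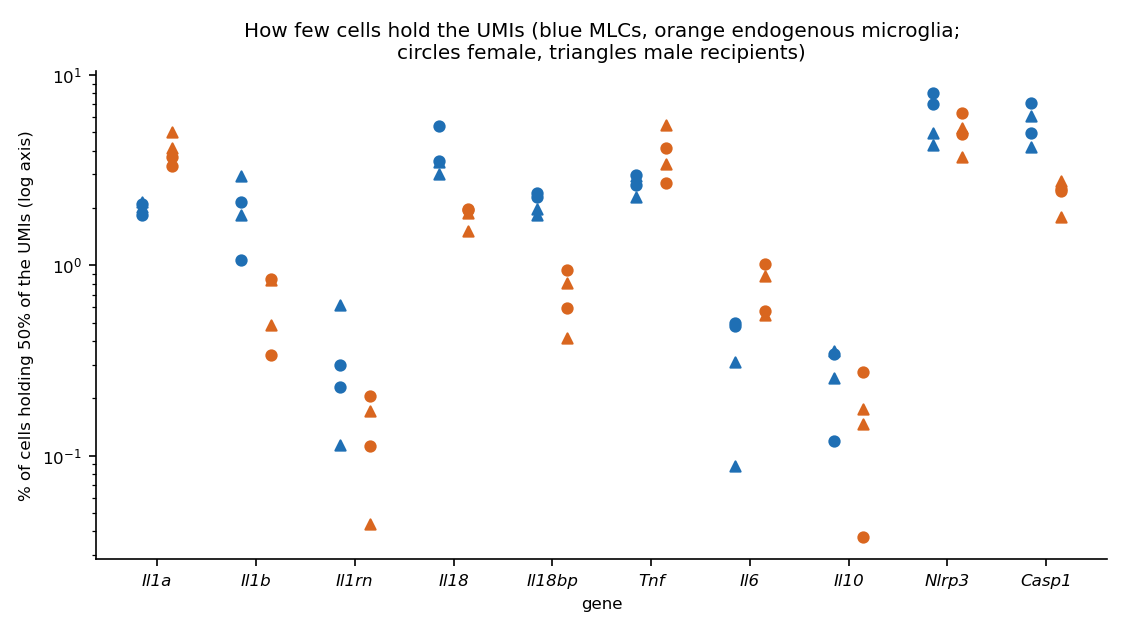
The percentage of cells that hold 50% of a gene's UMIs, on a log axis, in each of the 8 brain libraries, with blue for MLCs and orange for endogenous microglia. Values for Il1b are 1.07% to 2.96% in MLCs and 0.336% to 0.850% in endogenous microglia, and Il10 lies at 0.0374% to 0.353% over all 8.

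Some of the transcripts were found in the same cells, which is given as a description. At 500 UMIs per cell, cells with Il1a carried Tnf 1.29 to 2.18 times as often as cells without Il1a in the 4 MLC libraries and 1.45 to 2.21 times as often in the 4 endogenous libraries. Cells with Il1b carried Nlrp3 1.502 to 2.61 times as often in MLCs and 1.31 to 1.71 times as often in endogenous microglia. Cells with Il1b carried Tnf 1.36 to 2.64 times as often in MLCs, and 0.955 to 1.29 times as often in endogenous microglia, where 3 of 4 libraries were above 1. Other pairs were below 1, such as Casp1 in cells with Tnf in MLCs (0.193 to 0.808 times, above 1 in 0 of 4 libraries) and Il18bp in cells with Il1b in endogenous microglia (0 to 0.833 times, above 1 in 0 of 4), but no more than 3 cells of a library held both transcripts of these pairs. At least 3 of Il1a, Il1b, Tnf and Nlrp3 were found in 0.329% to 1.28% of MLCs and in 0.523% to 2.69% of endogenous microglia. Of the promoters printed above, those of Il1a, Il1b and Tnf held TATAAA near the start. Any link of this to their detection in the same cells was not tested.

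Cells of other types can carry the same transcripts, and their markers were counted. In MLCs of i.v.-dosed mice, cells with at least 3 markers of neutrophils, monocytes, dendritic cells, T or NK cells or B cells held 14.8% and 23.9% of the Il1b UMIs and 42.1% and 32.2% of the Il1rn UMIs. In MLCs of i.c.v.-dosed mice no cell carried 3 such markers. In endogenous microglia, cells with at least 3 such markers held 27.3% and 5.80% of the Il1b UMIs in the i.v.-dosed female and male. In the i.c.v.-dosed female and male these shares were 9.53% and 6.90%. The 39 cells with at least 3 neutrophil markers in MLCs of i.v.-dosed mice held Il1b at 3969 and 5565 CPM and Il1rn at 145 and 274 CPM. Their share was 3.14% and 3.15% of the Il1b UMIs of the female and the male, and 8.73% and 17.8% of the Il1rn UMIs. Without the cells of all these types, Il1b in MLCs was at 528 and 1994 CPM after i.v. and at 521 and 975 CPM after i.c.v. dosing, and Il1rn at 4.72 and 15.5 CPM and at 5.32 and 7.52 CPM. The comparison of the sorts without these cells called the same 5 genes, with Tnf at -0.93, Casp1 at 0.75, Il18bp at 1.27, Il18 at 0.37 and Il6 at -1.16 on the log2 scale.

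Markers of CNS-associated macrophages moved with the sort as well, and the levels were therefore read within cells by their markers, a choice made after values had been seen. These classes overlap, since a cell with at least 3 markers of each list was counted in both, so they are not separate cell types. In cells with at least 3 microglia markers and no other immune list, Tnf was at 151 to 191 CPM in MLCs and 324 to 548 CPM in endogenous microglia, Il18bp at 19.2 to 23.0 and 6.15 to 14.3 CPM, and Casp1 at 50.8 to 69.0 and 32.3 to 44.8 CPM, without overlap. In cells with at least 3 markers of CNS-associated macrophages, Tnf was at 129 to 167 CPM in MLCs and 170 to 200 CPM in endogenous microglia, a smaller gap. In those cells the ranges met for Casp1, at 53.3 to 71.5 and 36.6 to 57.5 CPM, and for Il1a, at 75.1 to 281 and 56.0 to 308 CPM. Il6 was at 1.04 to 5.47 CPM in MLCs and 0 to 4.07 CPM in endogenous microglia in those cells, from 75 and 16 UMIs, and Il1b at 284 to 1444 and 150 to 1841 CPM, so these ranges met too. The part of macrophage markers in the differences between the sorts was not tested.

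**Figure D5:**
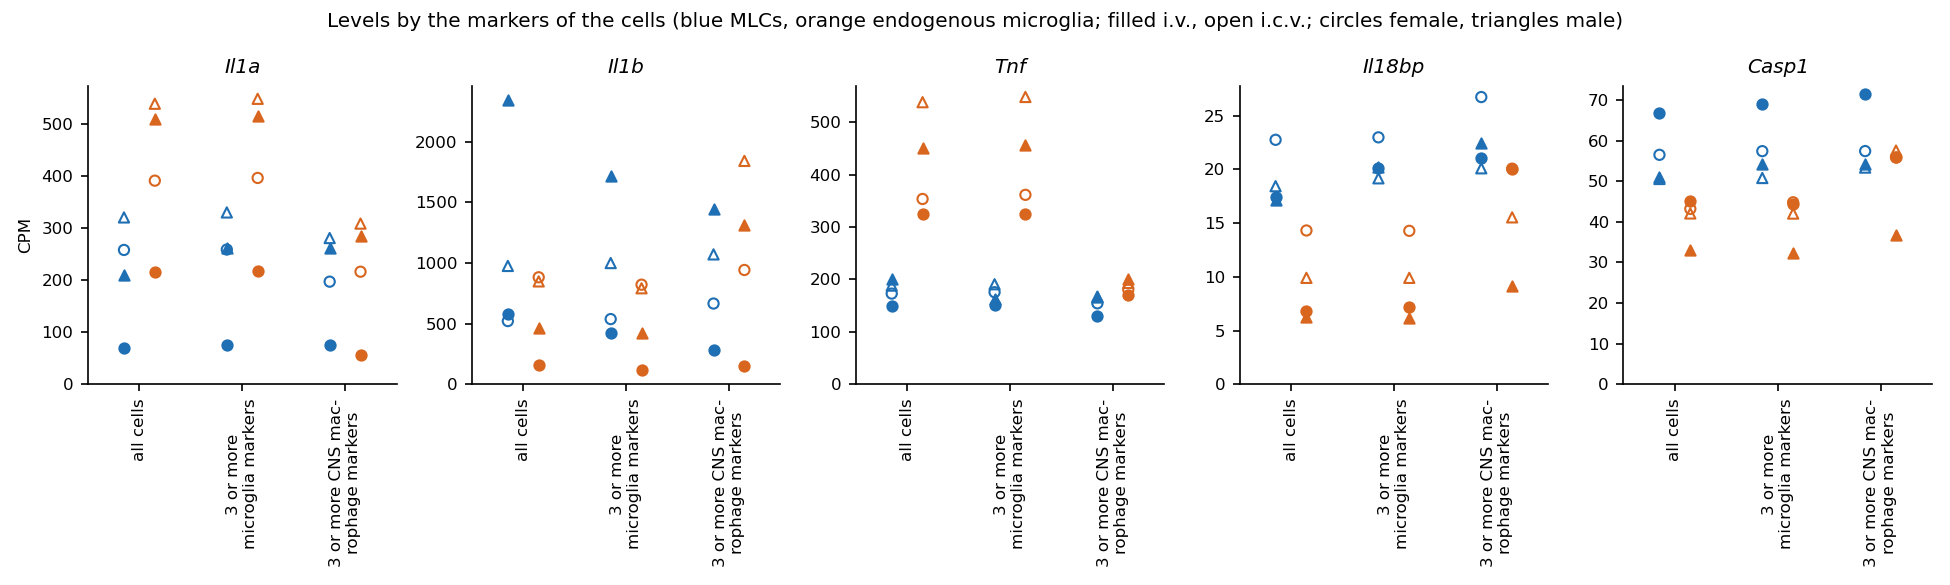
Levels of 5 genes as CPM in all cells, in cells with at least 3 microglia markers and in cells with at least 3 markers of CNS-associated macrophages, per library, where blue is MLCs, orange endogenous microglia, filled i.v. and open i.c.v. dosing. Tnf in endogenous microglia is 324 to 538 CPM in all cells and 170 to 200 CPM in cells with macrophage markers, while in MLCs it is 150 to 200 and 129 to 167 CPM. A cell can be in both marker classes.

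The naive libraries placed these levels among other cells, with exact 95% Poisson intervals that cover counting error only. Il1b was at 596 CPM (549 to 646) in naive microglia and 425 CPM (400 to 451) in white blood cells, and it had 0 UMIs in the astrocyte library and the neuron sort, where 3 UMIs would be 0.624 and 0.807 CPM. In the white blood cells 52.1% of the Il1b UMIs and 91.3% of the 23 Il1rn UMIs were in cells with at least 3 neutrophil markers. Tnf was at 163 CPM (139 to 190) in naive microglia and 9.50 CPM (6.15 to 14.0) in blood, and Il1a at 177 CPM (152 to 205) and 1.14 CPM (0.235 to 3.33), which is 3 UMIs. Il1rn was at 3.04 CPM (0.626 to 8.87) in naive microglia and 8.74 CPM (5.54 to 13.1) in blood. Nlrp3 was at 96.2 CPM (77.8 to 118) in naive microglia and 50.6 CPM (42.3 to 59.9) in blood, below each of the 8 brain sorts. Tnf, Il1a, Nlrp3, Il1rn and Il10 had 0 UMIs in both the astrocyte library and the neuron sort. In naive microglia, neutrophil markers summed to 9238 CPM although 1 of 1274 cells carried at least 3 of them, and the median depth was 425 UMIs.

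Il18 had another order, with its highest level outside the myeloid cells. It was at 196 CPM (184 to 209) in astrocytes and 107 CPM (96.6 to 118) in the neuron sort, against 34.4 CPM (23.8 to 48.1) in naive microglia, 25.5 CPM (19.7 to 32.3) in blood and 27.1 to 35.1 CPM in the 8 brain sorts. At 500 UMIs per cell it was found in 8.38% (6.84% to 10.1%, Clopper-Pearson) of astrocytes and 3.32% (1.91% to 5.33%) of the neuron sort, and in 46.2% and 43.7% at their own depth. In the neuron sort, 99.7% of the Il18 UMIs were in cells with at least 3 oligodendrocyte markers. Il18bp was at 1.61 to 5.06 CPM in the 4 naive libraries, so that the number of Il18 UMIs per Il18bp UMI was 42.9 in astrocytes, 66.2 in the neuron sort, 6.80 in naive microglia and 5.15 in blood. Casp1 was at 61.2 CPM (52.1 to 71.4) in blood and 43.5 CPM (31.5 to 58.6) in naive microglia, with 4.16 CPM (2.54 to 6.43) in astrocytes and 0 UMIs in the neuron sort. Il6 was at 12.2 CPM (8.32 to 17.2) in blood and 8.10 CPM (3.50 to 16.0) in naive microglia, from 32 and 8 UMIs. Il10 was counted with 6 UMIs in naive microglia, all in 1 cell, and with 0 in blood.

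Genes of the same pathways were read from lists chosen with earlier results known. Of 10 receptor genes tested, 1 was higher and 3 were lower in MLCs, with a list median of -0.22 on the log2 scale. Here and in the lists that follow, the counts stand beside 32.5% of all genes called in either direction and 15.9% called lower. Il10rb, the second chain of the IL-10 receptor, rose from 181 ± 20.9 to 257 ± 21.3 CPM (SD, n = 4 each), with a log2 fold change of 0.78 (adjusted p = 0.00289). Il6st, which encodes gp130, fell from 116 ± 25.8 to 41.9 ± 4.30 CPM with a log2 fold change of -1.18 (adjusted p = 0.000709). Il10ra, the ligand-binding chain for IL-10, had -0.48 (adjusted p = 0.0138) and Il6ra, that for IL-6, -0.40 (adjusted p = 0.0459), and the call of Il6ra was lost in 13 of 22 alternatives, that of Il10ra in 1.

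Among 15 further inflammasome genes tested, 1 was higher and 8 were lower, with a median of -0.50. Nlrc4, which nucleates another inflammasome, was at 16.1 ± 2.40 CPM in MLCs and 6.52 ± 3.47 CPM in endogenous microglia, with a log2 fold change of 1.53 (adjusted p = 0.0103). Naip5, a receptor of flagellin upstream of NLRC4, had -0.85 (adjusted p = 0.00361), and it was at 21.8 ± 3.80 and 48.0 ± 9.20 CPM, but with cells thinned to 500 UMIs its value was -0.27 (adjusted p = 0.378). The sensors Nlrp1a (-0.99, adjusted p = 0.0142) and Nlrp1b (-0.85, adjusted p = 0.0325) were lower. Nlrp1a, Nlrp1b and Naip5 have near-identical copies, which makes their counts uncertain. The call of Nlrp1a was lost in 3 of 22 alternatives and that of Nlrp1b in 8 of 22, without 6 of the 8 libraries in turn among them, with log2 values of Nlrp1b up to -0.034. Of 28 NF-kB pathway genes, 2 were higher and 2 were lower. These were the kinase genes Irak3 (0.71, adjusted p = 0.0318) and Irak4 (0.42, adjusted p = 0.0210), and Tab2 (-0.36, adjusted p = 0.0299) and Map3k7 (-0.30, adjusted p = 0.0327), which encode the adaptor and kinase of the TAK1 complex. None of these 4 calls held in all 22 alternatives, with Map3k7 lost in 12, Irak3 and Tab2 in 8 each and Irak4 in 4. Of the 8 genes of cytokine release and mRNA decay, 0 were called by edgeR, 1 had an unadjusted p under 0.05 and 1 was called by DESeq2.

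In the list of IL-6 and IL-10 signaling, Tyk2 (-0.33, adjusted p = 0.0414), which encodes a kinase of the JAK family, was lower, but this call was lost in 14 of 22 alternatives, DESeq2 and the mouse as a block among them, and its value was 0.08 with cells thinned to 500 UMIs. Of 15 other cytokines tested, 1 was higher and 2 were lower. Csf1, the growth factor of macrophages and microglia, was at 8.13 ± 2.95 CPM in MLCs and 80.6 ± 12.8 CPM in endogenous microglia, with a log2 fold change of -3.06 (adjusted p = 0.000126). Ebi3, a subunit of IL-27 and IL-35, had 0.61 (adjusted p = 0.0355) and Il16, a T cell chemoattractant, -0.48 (adjusted p = 0.0134), and these calls were lost in 9 and 2 of 22 alternatives. Of 19 genes known to respond to dissociation, mostly immediate-early and heat shock genes, 2 were higher (Rgs1, 0.72, adjusted p = 0.0180, and Fos, 0.63, adjusted p = 0.0296) and 1 was lower (Ier5, -0.44, adjusted p = 0.0196), and these calls were lost in 3, 8 and 4 of 22 alternatives. Their summed level was 20418 to 25541 CPM in MLCs and 23365 to 28497 CPM in endogenous microglia. The part of dissociation in the cytokine levels was not tested.

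Across the 12 libraries, the genes most like the members of the set were sought among 6865 genes by Pearson's r of log2(CPM + 1), as a description, since the libraries differ in cell type. Nlrp3 was most like Cd86 (r = 0.997), a costimulatory molecule of myeloid cells, and Casp1 most like Cyba (r = 0.996), a subunit of the phagocyte oxidase. Il1b was most like the neutrophil chemokine gene Cxcl2 (r = 0.987) and the chemokine receptor gene Ccr1 (r = 0.986). Il1a was most like Itga9 (r = 0.990), an integrin subunit, and the match that followed Hpgds (r = 0.989) was Adam17 (r = 0.987), which encodes the protease that sheds TNF. Tnf was most like Arhgap22 (r = 0.993), Il18 most like Pmm1 (r = 0.984), Il1rn most like Gm6377 (r = 0.970), Il18bp most like Stbd1 (r = 0.946) and Il10 most like Nfe2l2 (r = 0.941).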

How the data were processed

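Single-cell 3-prime RNA was measured in 12 libraries. The authors deposited whole-number counts, the UMIs (unique molecular identifiers) of each gene in each barcode, made with Cell Ranger 3.1.0 per the file headers and mm10 per the labels, without normalization. Kept barcodes had 200 or more genes and no more than 10% of UMIs from mitochondrial genes, 84.5% to 93.9% of the barcodes of the treated libraries and 13.6% to 51.0% of the naive ones. Doublets were not called. Counts were summed per library, which was the unit of replication, and the spread is that between single libraries of different mice.

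The sorts (4 against 4 libraries), the routes within each sort and their interaction were tested with edgeR 4.0.16 (TMM, filterByExpr, two-sided quasi-likelihood F tests, Benjamini-Hochberg adjustment over all genes tested, call at an adjusted p under 0.05) under R 4.3.3. DESeq2 1.42.0 was an alternative. The tests were tested on simulated data. Intervals of levels are exact Poisson and those of shares Clopper-Pearson, at 95%, and cover counting error only, and thinning used a seed of 1. Tables were made with pandas 2.3.3, numpy 2.4.6 and scipy 1.17.1 under Python 3.11.15. The counts of 2 sorts of a mouse are paired by the animal, whose number is in the labels. The correlation of the deviations of a mouse's 2 libraries from their group means was 0.25, -0.27, -0.33 and 0.04.

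The 10 genes and the other lists were chosen with earlier results of these data known. All 10 are described, with up to 3 called genes per list and direction by the largest fold change, and for genes of at least 10 CPM in a library the 3 most similar among genes of at least 20 CPM in at least 3 libraries, of which some are named. Results for some genes that this rule names are not reported here. Alternatives were all barcodes, a stricter filter (500 or more genes, up to 5% mitochondrial), cells with 3 neutrophil or other immune markers left out, thinning to 500 UMIs, DESeq2, upper-quartile normalization, no filter on low counts, each library left out, the mouse as a block, route or recipient sex as covariate, and 1 route or sort alone. Scaling to library totals was added after the data had been seen.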

Additional observations from a re-analysis of the deposited data

Results flagged for a closer look

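Of 20 sets of 4 libraries (10 genes in 2 sorts), 3 held a library whose gap to the nearest other exceeded Dixon's 95% limit for 4 values, which chance passes in about 1 of 20 sets. Il1rn in MLCs was highest in the i.v.-dosed male, at 20.5 CPM against 5.32 to 7.63 CPM in the other 3 libraries. Il6 in endogenous microglia was highest in the i.v.-dosed female, at 13.7 CPM against 9.35 to 9.90 CPM. Nlrp3 in MLCs was lowest in the i.v.-dosed female, at 141 CPM against 270 to 295 CPM.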

How the results depend on the processing

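Il10 and Il1rn had the fewest UMIs in an endogenous library, 12 and 14, and each route had 2 mice. At the depth of the naive astrocytes and the neuron sort, 3 UMIs were 0.624 and 0.807 CPM, so lower levels rest on fewer than 3 UMIs. Where a value changed below, the cause was not tested unless fewer libraries or cells were the change itself.

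For MLCs against endogenous microglia, 3 of the 10 genes were called with only i.c.v.-dosed mice, and 3 to 4 without each library in turn. The calls over all genes fell to 1316 with cells thinned to 500 UMIs and 1031 with only i.c.v.-dosed mice, and were 2177 (without the endogenous microglia of the i.v.-dosed male) to 3791 without each library. Signs turned for Il1rn (-0.26) and Il1b (-0.034) with only i.c.v.-dosed mice and for Il18 (-0.047) with thinning.

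For the route within MLCs, calls over all genes were 162 without other immune cells, 81 with thinning, 679 with no filter on low counts, and 42 (without the MLCs of the i.c.v.-dosed female) to 293 without each library, with 180 without the MLCs of the i.c.v.-dosed male. Signs turned with thinning for Il6 (-0.51) and Tnf (-0.42) and with library totals for Tnf (-0.048). Without each library in turn, log2 values ran from -0.28 to 1.76 for Il1b, -0.43 to 1.08 for Il6, -0.85 to 0.23 for Nlrp3 and -0.17 to 0.26 for Tnf.

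For the route within endogenous microglia, DESeq2 called 1 of the 10 genes and 67 of all genes. The calls over all genes were 83 with no filter, 4 with thinning, 4 with this sort alone and 0 to 23 without each library. Signs turned with thinning for Il6 (-0.40) and with library totals for Il18 (0.047). Without each library in turn, log2 values ran from -1.21 to 0.0011 for Il1a, -0.19 to 0.39 for Il6 and -0.20 to 0.052 for Il18.

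For the interaction, calls among the 10 genes were 1 in DESeq2, 2 with no filter and 1 with the mouse as replicate block. Calls over all genes were 142 with the stricter barcode filter, 68 without other immune cells, 75 with thinning, 568 in DESeq2, 698 with no filter, 412 with recipient sex as covariate, 678 with the mouse as replicate block, and 41 to 239 without each library. They were 41 without the endogenous microglia of the i.v.-dosed male and 41 without those of the female given i.c.v. dosing, 49 without the MLCs of that female, 101 without the endogenous microglia of the i.v.-dosed female, and 133 and 135 without the MLCs of the i.v.-dosed and the i.c.v.-dosed male. The sign of Il6 turned with thinning (-0.10). Without each library in turn, log2 values ran from -1.49 to 0.28 for Il1a, -0.55 to 0.95 for Il6 and -0.12 to 0.96 for Nlrp3.

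In the sort comparison with the replicate block, Il1a was gained and Il18 and Il6 were lost, and in the interaction Il1b was gained. No other of the 10 genes changed its call with the block. Over all comparisons and alternatives, 736 fold changes of the 10 genes kept their sign and their side of the threshold, 23 lost a call, 9 gained one and 21 turned sign. Shares of cells at 1000 UMIs or at the cells' own depth moved by over the spread of the libraries in 35 cases and by less in 5, and levels in the naive libraries moved by over their counting interval with other barcode filters in 23 cases and by less in 57.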
